A study of Mus musculus with 64 samples.

Results

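The 7 genes described here are the cadherin genes Cdh1 and Cdh2 and the transcription factor genes Snai1, Snai2, Zeb1, Zeb2 and Twist1, which were chosen by name for their part in epithelial-mesenchymal transition. Peaks of SOX2, β-catenin, LEF1, TCF7L1 and TCF7L2 were collected at each of them from 60 chromatin immunoprecipitation sequencing (ChIP-seq) libraries of mouse cells. A peak counted towards a gene when its summit, the position of highest signal, lay in the mm10 GENCODE gene body or within 30 kb on either side of it. These 7 loci, of 21938 protein-coding genes, held 6039 of the 12175672 peaks on the main chromosomes. Among the 20000 strongest peaks of each library they held 886 of 1094874. Strength was the deposited fold of each peak, which the peak caller gives as summit signal over local background.

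Each of the 5 proteins was profiled in 4 conditions with 3 independent biological replicates, and 4 input samples were not analysed here. TCF7L1 and TCF7L2 carry the older names TCF3 and TCF4 in the sample labels. Naive ESC were wild-type HM1 embryonic stem cells, a line of 129 mice, kept in 2i medium with the WNT agonist CHIR99021 and the MEK inhibitor PD0325901. CEpiLC were the same wild-type line differentiated for 72 h as caudal epiblast-like cells, with bFGF and the WNT secretion inhibitor LGK974 throughout and with CHIR99021 added for the last day. SOX2-ON and SOX2-OFF were the SOX2-TetON line taken through the CEpiLC protocol with 1.0 µg/ml doxycycline or without it. This line had lost its endogenous Sox2 by gene editing, was clonally selected, and carried a doxycycline-inducible Sox2 transgene at the Hprt locus. Per the paper its parent was the HM1 TetON line, also the wild-type control, which already expressed the transactivator rtTA from Rosa26. All 4 conditions were thus exposed to CHIR99021. Naive ESC and SOX2-ON were by design the conditions with high SOX2, the others those with low SOX2, but naive ESC and CEpiLC differed in cell state and medium as well, so those cannot be told apart from SOX2 level there. The SOX2 antibody libraries of SOX2-OFF still listed 56263 to 375980 peaks.

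A list held between 1628 and 991719 peaks (median 106232), 10 of the 60 lists were shorter than 20000 and 5 were shorter than 5000. The weakest peak kept among the 20000 strongest of a list had a fold between 3.08 and 9.89. A locus without a peak there is given as 0, which means that no peak reached that strength, not that no protein was bound. The number of reads behind a list is not known. Values describe where the proteins were found on DNA and say nothing of transcription of the genes. The windows of Cdh1, Snai1 and Twist1 also reached Tango6, Rnf114 and Ferd3l, so a peak there cannot be given to 1 gene.

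Cdh1 encodes E-cadherin, which joins epithelial cells, and Cdh2 encodes N-cadherin, which takes its place when epiblast cells become mesenchymal. The Snail factors Snai1 and Snai2 and the zinc-finger homeobox factors Zeb1 and Zeb2 bind E-box sequences and repress Cdh1, while Twist1 is a basic helix-loop-helix factor of mesoderm and neural crest. In canonical WNT signalling, stabilised β-catenin is brought to DNA by the LEF1/TCF factors, of which TCF7L1 is best known as a repressor in embryonic stem cells, and SOX2 is a pluripotency and neural factor that often binds with the octamer factor OCT4.

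Summits were merged into sites wherever neighbours lay at most 200 bp apart. The following 201 bp of the plus strand of GRCm38 (mm10), centred on the median summit, are shown because they are the sites on which the results at Snai1, Zeb2 and Cdh1 turn. The Snai1 intron site lay 2061 bp downstream of the Snai1 start (chr2:167540156-167540356) and the Snai1 upstream site 7994 bp before it, between genes (chr2:167530101-167530301). The Zeb2 intron site lay 79591 bp into the gene (chr2:45037704-45037904) and the Zeb2 distal intron site 92672 bp into it (chr2:45024623-45024823). The Cdh1 upstream site lay 3606 bp before the Cdh1 start, between genes (chr8:106599645-106599845), and the Cdh1 intron site 29471 bp into the gene (chr8:106632722-106632922). Capitals mark the motifs searched on both strands, none of which overlaps another here.
Snai1 intron site: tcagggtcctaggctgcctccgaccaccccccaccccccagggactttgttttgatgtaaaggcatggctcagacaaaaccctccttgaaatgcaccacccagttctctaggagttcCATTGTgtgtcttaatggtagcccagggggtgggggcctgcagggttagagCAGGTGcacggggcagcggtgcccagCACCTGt
Snai1 upstream site: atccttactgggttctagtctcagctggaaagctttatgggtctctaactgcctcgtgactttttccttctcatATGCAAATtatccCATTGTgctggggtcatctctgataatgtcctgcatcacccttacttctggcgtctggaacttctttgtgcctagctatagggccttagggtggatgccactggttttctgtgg
Zeb2 intron site: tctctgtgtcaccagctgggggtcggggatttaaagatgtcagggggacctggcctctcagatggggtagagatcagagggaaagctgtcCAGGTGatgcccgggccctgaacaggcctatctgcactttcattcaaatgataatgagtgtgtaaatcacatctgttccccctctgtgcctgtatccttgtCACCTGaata
Zeb2 distal intron site: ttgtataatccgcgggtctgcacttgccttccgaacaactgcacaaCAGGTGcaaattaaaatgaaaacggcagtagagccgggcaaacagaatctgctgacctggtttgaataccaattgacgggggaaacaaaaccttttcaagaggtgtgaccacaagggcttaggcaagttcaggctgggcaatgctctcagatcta
Cdh1 upstream site: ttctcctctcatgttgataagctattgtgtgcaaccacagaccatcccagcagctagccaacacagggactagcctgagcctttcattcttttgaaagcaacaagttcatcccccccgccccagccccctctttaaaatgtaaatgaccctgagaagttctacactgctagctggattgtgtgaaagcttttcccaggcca
Cdh1 intron site: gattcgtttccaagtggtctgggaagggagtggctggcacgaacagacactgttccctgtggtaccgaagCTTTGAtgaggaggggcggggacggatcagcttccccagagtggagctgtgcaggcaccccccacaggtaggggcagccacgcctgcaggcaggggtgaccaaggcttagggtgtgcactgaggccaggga

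The motif for TCF/LEF factors was the core CTTTGA, that for SOX factors the core CATTGT, the octamer was ATGCAAAT, and the E-box was CAGGTG, the form that Snail and ZEB factors recognise. Each was also counted as its reverse complement, which is how it reads when it lies on the minus strand. Of the 29424 sites of the genome found in at least 6 libraries, 39.2% held the TCF/LEF core, 19.1% the SOX core, 4.27% the octamer and 20.3% the E-box. Of the 27 such sites at Cdh1, Snai1, Snai2, Zeb2 and Twist1, 5 held the TCF/LEF core, 2 the SOX core, 3 the octamer and 9 the E-box. The 10 such sites at Cdh2 were not searched for motifs, though its chromosome counted towards the genome shares, and Zeb1 had 0 such sites. Both searched sites with a SOX core were at Snai1, and the upstream one had an octamer with its first base 13 bp before that of the SOX core. The Snai1 intron site held 2 E-boxes and no TCF/LEF core, and the Zeb2 intron site held 2 E-boxes alone. The Cdh1 upstream site held none of the 4 motifs. A match is a description of these letters and no evidence of binding by any one factor.

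Per length, the 7 loci differed widely in the number of strong peaks. Over all 60 libraries Snai1 held 21.2 peaks among the 20000 strongest per 10 kb of window, Cdh1 17.3 and Zeb2 12.2, against 4.02 for the genome as a whole. Cdh2 held 7.45, Twist1 5.47, Snai2 3.94 and Zeb1 1.03 on the same scale. These windows were placed on genes and the whole genome was not, so this order is a description with no test. The number of libraries of 60 with a strong peak was 57 for Zeb2, 55 for Cdh2, 52 for Snai1 and 49 for Cdh1, whereas it was 22 for Snai2, 21 for Twist1 and 16 for Zeb1. For all protein-coding loci 48.9% to 56.5% of locus and library pairs had a strong peak, depending on the protein. Windows were 64.6 kb long for Snai1, 63.5 kb for Snai2 and 62.2 kb for Twist1, but 127 kb for Cdh1, 194 kb for Zeb2, 244 kb for Zeb1 and 280 kb for Cdh2, and longer windows can hold more peaks by length alone.

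**Figure D1:**
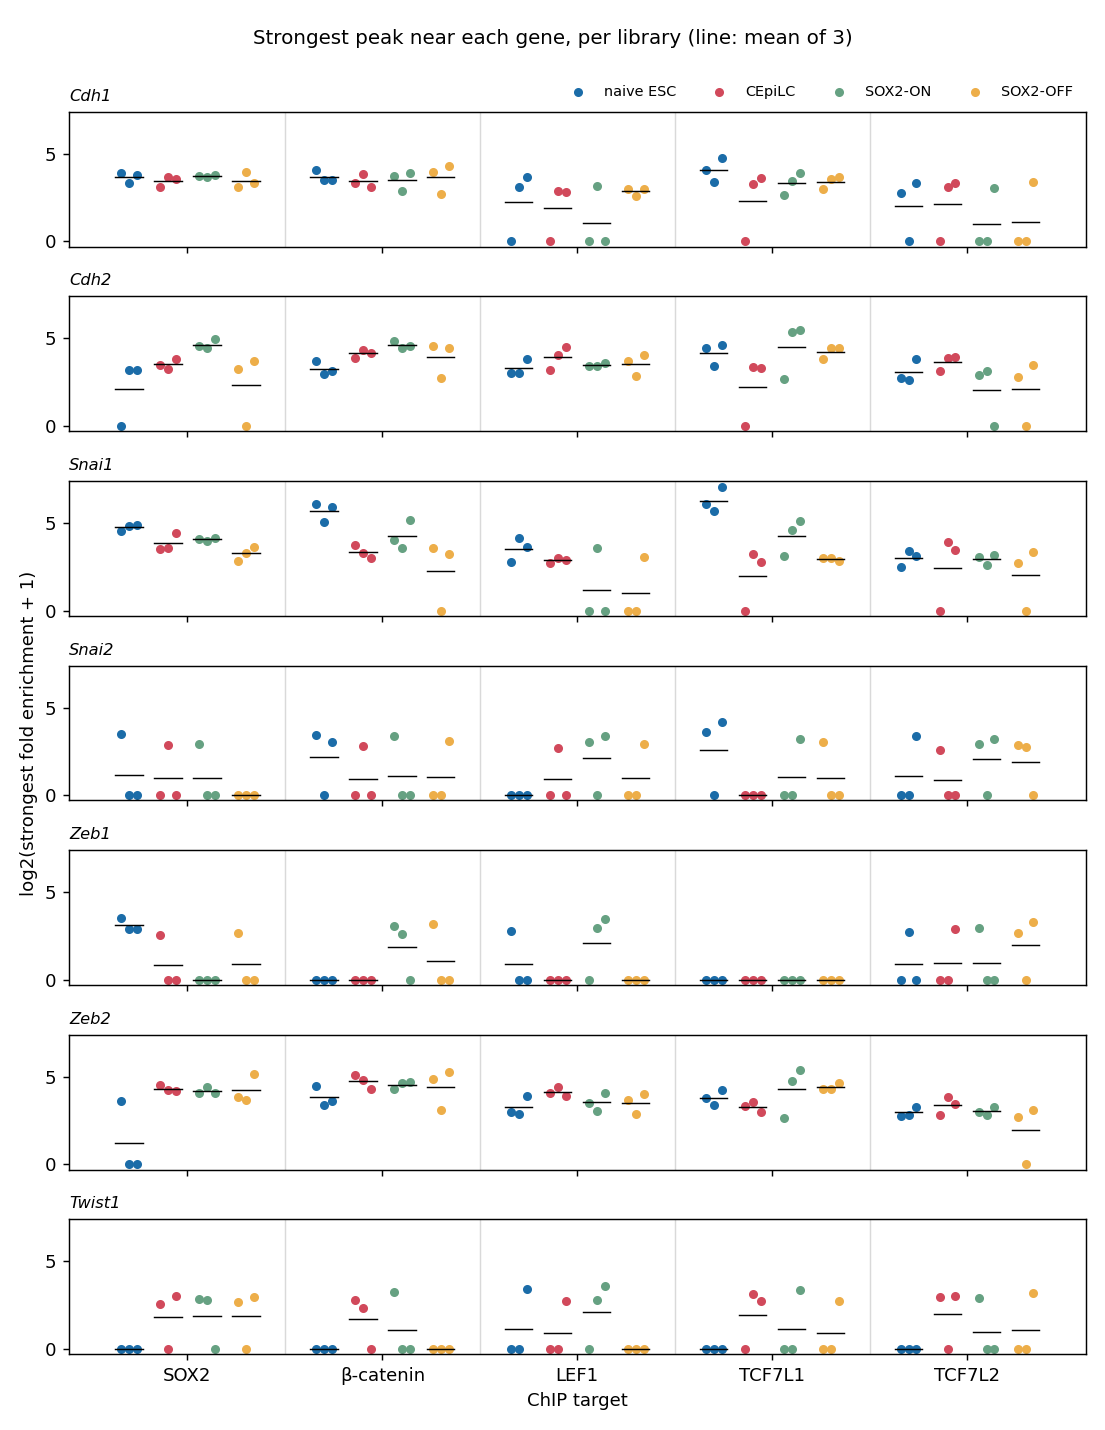
Each point is 1 library, placed by protein and condition, and shows log2(fold + 1) of the strongest peak at the gene among the 20000 strongest of that library, with a line at the mean of 3. Snai1 in naive ESC carries the highest TCF7L1 points, with a mean of 6.26, while all 12 TCF7L1 libraries sit at 0 for Zeb1.

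At Cdh1 (chr8:106603351-106670246, plus strand), all 12 SOX2 libraries and all 12 β-catenin libraries had a strong peak. The highest SOX2 fold at the locus was 14.2, 9.14 and 13.1 in naive ESC, 7.47, 11.7 and 10.8 in CEpiLC, 12.3, 11.7 and 12.6 in SOX2-ON and 7.53, 14.3 and 9.17 in SOX2-OFF (replicates 1, 2 and 3, the order used throughout). The 4 conditions overlapped, and limma found a log2 difference of -0.26 (SE 0.43, adjusted p = 0.776) for CEpiLC minus naive ESC and 0.26 (SE 0.43, adjusted p = 0.740) for SOX2-ON minus SOX2-OFF. These fitted values are on the scale of log2(fold + 1), taken over all loci.

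Single sites of Cdh1 were listed in some conditions and not in others. Beside each of them, weaker peaks of the same protein within 200 bp are given for the condition that lacked it. The Cdh1 upstream site was in 28 libraries, and its SOX2 fold was 12.3, 9.01 and 7.81 in naive ESC, 7.47, 11.7 and 7.82 in CEpiLC and 10.2, 11.5 and 12.6 in SOX2-ON. In SOX2-OFF none of the 3 libraries had it among the 20000 strongest, but all 3 had a weaker peak there, of 3.29, 5.22 and 6.26. The Cdh1 intron site was a β-catenin peak in all 12 libraries. Its TCF7L1 fold was 16, 7.70 and 15.4 in naive ESC and 0 in all 3 CEpiLC libraries, of which 1 had a weaker peak of 5.16. Further TCF7L1 sites of Cdh1 with the same distribution lay in the first part of the gene, 3370 bp (9.84, 5.95 and 16.6 in naive ESC) and 12435 bp (9.77, 5.47 and 23.1) from its start, and at these no CEpiLC library had a TCF7L1 peak of any strength. A β-catenin site 26330 bp into Cdh1 was likewise in all naive ESC libraries (7.38, 6.99 and 6.54) and no CEpiLC library. Another β-catenin site of the window, in an intron of Tango6, was in all CEpiLC libraries (6.46, 5.77 and 7.47) and no naive ESC library.

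At Cdh2 (chr18:16588877-16809246, minus strand), the SOX2-TetON line showed the clearest contrast. In the intron 194387 bp from the start, the SOX2 fold was 14.2, 20.6 and 30.0 in SOX2-ON, and no SOX2-OFF library had a SOX2 peak there at any strength. β-catenin at the same site was 28.4, 20.5 and 22.3 in SOX2-ON and 0 in SOX2-OFF, where replicate 1 alone had a weaker peak of 5.34. TCF7L1 there was 5.33, 39.8 and 44.2 in SOX2-ON and 0, 8.72 and 8.63 in SOX2-OFF. The SOX2-ON and SOX2-OFF libraries did not overlap for SOX2 or β-catenin, but did for TCF7L1, since SOX2-ON replicate 1 was below 2 of the SOX2-OFF libraries. The SOX2-ON replicate 2 list, with 39.8, held 16482 peaks.

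In wild-type cells fewer libraries had a strong peak at this site. SOX2 was among the 20000 strongest peaks in 1 of 3 naive ESC libraries (7.69) and no CEpiLC library, with weaker peaks of 9.11 and 4.57 in naive ESC and 5.47 in CEpiLC. The first of these missed a list whose weakest kept peak had a fold of 9.89. β-catenin was among the strongest in 2 naive ESC libraries (7.95 and 7.53) and no CEpiLC library, with a weaker peak of 3.73 in the other naive ESC library. TCF7L1 was 15.7, 9.61 and 24.1 in naive ESC and absent at any strength from CEpiLC. Naive ESC and SOX2-ON, the conditions with high SOX2, were thus both above CEpiLC for TCF7L1, while for SOX2 itself most naive ESC libraries had no strong peak.

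Another intronic Cdh2 site, 138940 bp from the start, had SOX2, β-catenin and LEF1 together in SOX2-ON. SOX2 was 22.3, 14.3 and 16.5, β-catenin 14.4, 9.46 and 9.08, and LEF1 8.17, 9.62 and 9.02 in SOX2-ON. In SOX2-OFF no library had it among its strongest peaks for any of the 3 proteins, with 1 weaker β-catenin peak of 5.47 and 1 weaker LEF1 peak of 3.59. In the wild-type cells CEpiLC replicate 1 had SOX2 there, at 5.00, and all naive ESC libraries had weaker SOX2 peaks of 8.04, 6.09 and 5.59. TCF7L1 was among the strongest peaks there in 2 SOX2-ON libraries (12.2 and 10.9), no SOX2-OFF or CEpiLC library, and naive ESC replicate 1 (9.77). A weaker TCF7L1 peak of 9.02 was listed in naive ESC replicate 3.

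At other Cdh2 sites some of the proteins were among the strongest peaks of all CEpiLC and no naive ESC libraries. β-catenin 68058 bp into the gene was 14, 19.4 and 16.9 in CEpiLC and absent at any strength from naive ESC, and it was also in 2 SOX2-OFF libraries (9.57 and 13.2) and no SOX2-ON library. In an untranslated part of an exon, 564 bp from the start, β-catenin was 13.6, 12.7 and 8.93 in CEpiLC and 0 in naive ESC, where replicate 1 had a weaker peak of 5.25. TCF7L2 lay in the same place, with 7.77, 13.7 and 14.3 in CEpiLC and no peak of any strength in naive ESC. LEF1 65361 bp into the gene was 8.05, 7.79 and 6.04 in CEpiLC and not among the strongest peaks of the 9 other LEF1 libraries, with a weaker peak of 4.65 in naive ESC replicate 2. This last position is the Cdh2 site found in the most libraries, 30 of 60, and only its LEF1 peak was confined to CEpiLC in this way. β-catenin was there in all CEpiLC (13.7, 9.77 and 8.06) and all SOX2-OFF libraries (22.3, 5.79 and 20.8). TCF7L1 was there in all naive ESC (9.77, 9.69 and 23.0) and all SOX2-OFF libraries (13.0, 20.7 and 20.9), and in 1 CEpiLC library (9.41). TCF7L1 was among the strongest peaks of every naive ESC and no CEpiLC library 51866 bp into the gene (9.23, 7.37 and 12.6) and 11854 bp before the start (21.2, 5.95 and 19.3). The second of these had a weaker peak of 4.70 in CEpiLC replicate 2, and the first had none. At the second, β-catenin (8.08, 6.25 and 7.36) and LEF1 (7.52, 5.01 and 7.77) were in all CEpiLC libraries. In naive ESC β-catenin was there in 2 libraries and LEF1 in 1.

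Over the whole Cdh2 locus the highest SOX2 fold was 0, 8.12 and 8.16 in naive ESC, 10.2, 8.53 and 13.3 in CEpiLC, 22.3, 20.6 and 30.0 in SOX2-ON and 8.64, 0 and 12.1 in SOX2-OFF. All SOX2-ON libraries lay above all others. The fitted SOX2-ON minus SOX2-OFF difference was 2.32 (SE 1.04) and did not pass the threshold over all loci (limma, adjusted p = 0.252). It passed when all deposited peaks were used (1.35, adjusted p = 0.0347), where every library had a peak. Exact permutation of 3 against 3 libraries cannot go below p = 0.1, so a single pair of conditions could not pass by that test.

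**Figure D2:**
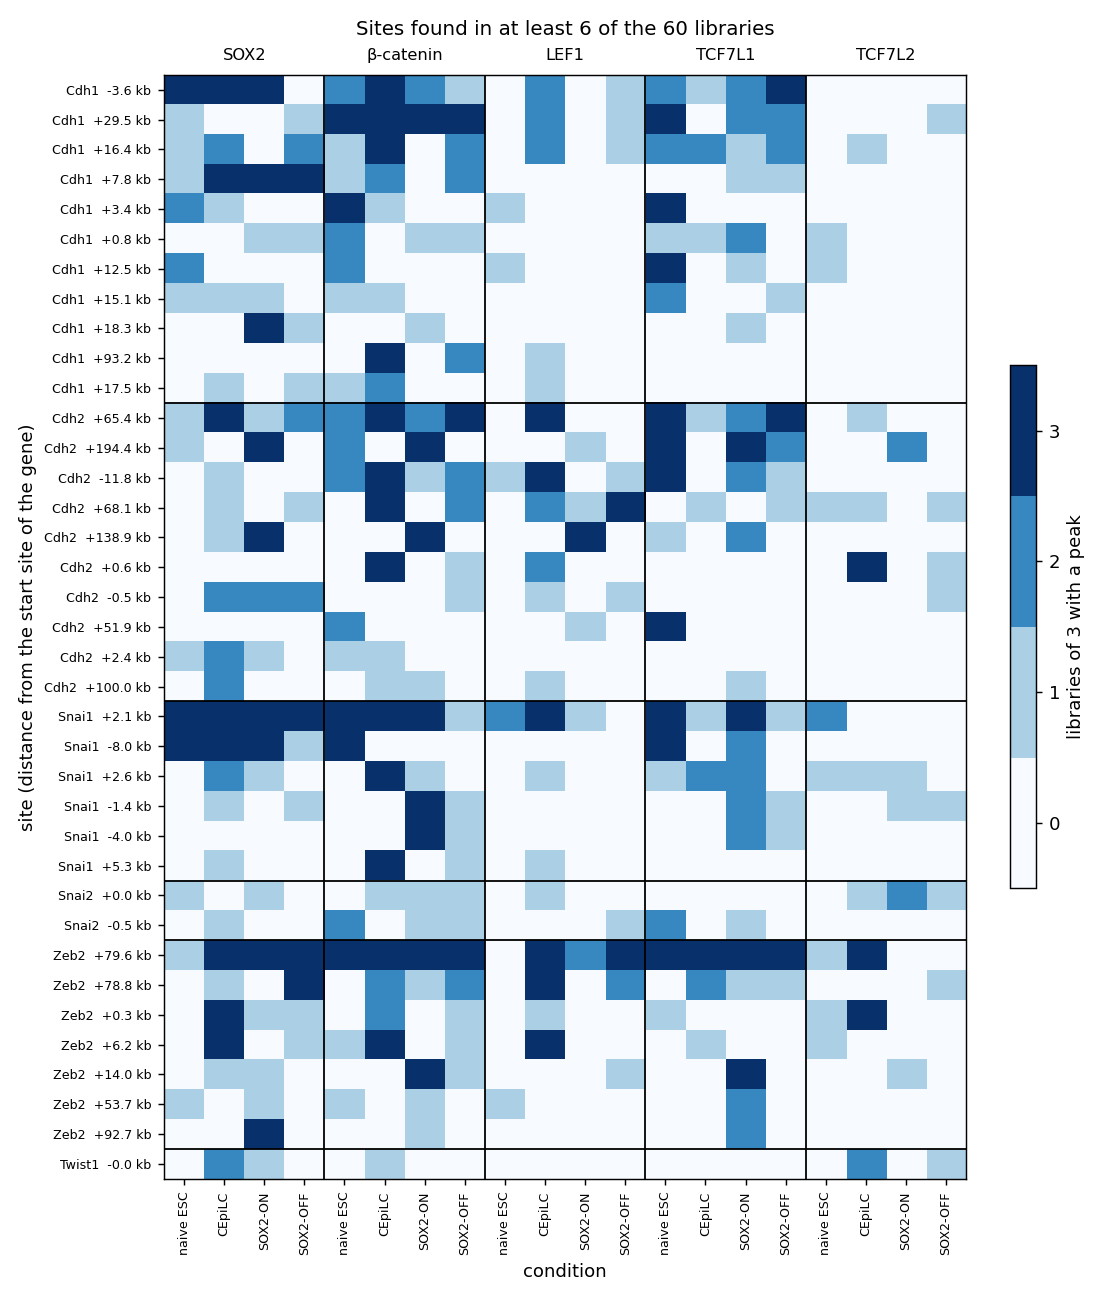
Rows are the sites found in at least 6 of the 60 libraries, named by gene and distance from its start in kb, columns are conditions within each protein, and the shade gives the number of the 3 libraries with a peak there among the 20000 strongest. β-catenin and TCF7L1 fill all 12 libraries at the Zeb2 intron site, and SOX2 fills all 12 at the Snai1 intron site.

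Snai1 (chr2:167538195-167542814, plus strand) carried the strongest peaks of the 7 genes. At the Snai1 intron site, found in 38 libraries, TCF7L1 was 66, 49.5 and 132 in naive ESC, 0, 8.29 and 0 in CEpiLC (with a weaker peak of 4.91 in replicate 3), 7.64, 23.3 and 33.2 in SOX2-ON and 0, 0 and 6.24 in SOX2-OFF. β-catenin was 67.0, 32.1 and 59.2 in naive ESC, 11.6, 8.95 and 4.40 in CEpiLC, 15.6, 10.7 and 34.7 in SOX2-ON and 0, 0 and 6.91 in SOX2-OFF. SOX2 was 18.1, 27.6 and 28.6 in naive ESC, 10.3, 11 and 20.9 in CEpiLC, 13.2, 9.03 and 16.2 in SOX2-ON and 4.87, 7.15 and 9.16 in SOX2-OFF. Naive ESC lay above CEpiLC without overlap for TCF7L1 and β-catenin, and SOX2-ON lay above SOX2-OFF in the same way, whereas for SOX2 CEpiLC replicate 3 exceeded naive ESC replicate 1 and SOX2-OFF replicate 3 exceeded SOX2-ON replicate 2. The CEpiLC TCF7L1 replicate 1 list, with a 0 here, was the shortest of all at 1628 peaks, and the SOX2-OFF β-catenin replicate 2 list, also with a 0, had 3423.

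LEF1 and TCF7L2 were weaker at the same position. LEF1 was 0, 16.9 and 11.5 in naive ESC and 5.67, 5.27 and 4.43 in CEpiLC. TCF7L2 was 0, 9.77 and 7.55 in naive ESC. At both, a naive ESC library without a strong peak stood beside others with one.

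**Figure D3:**
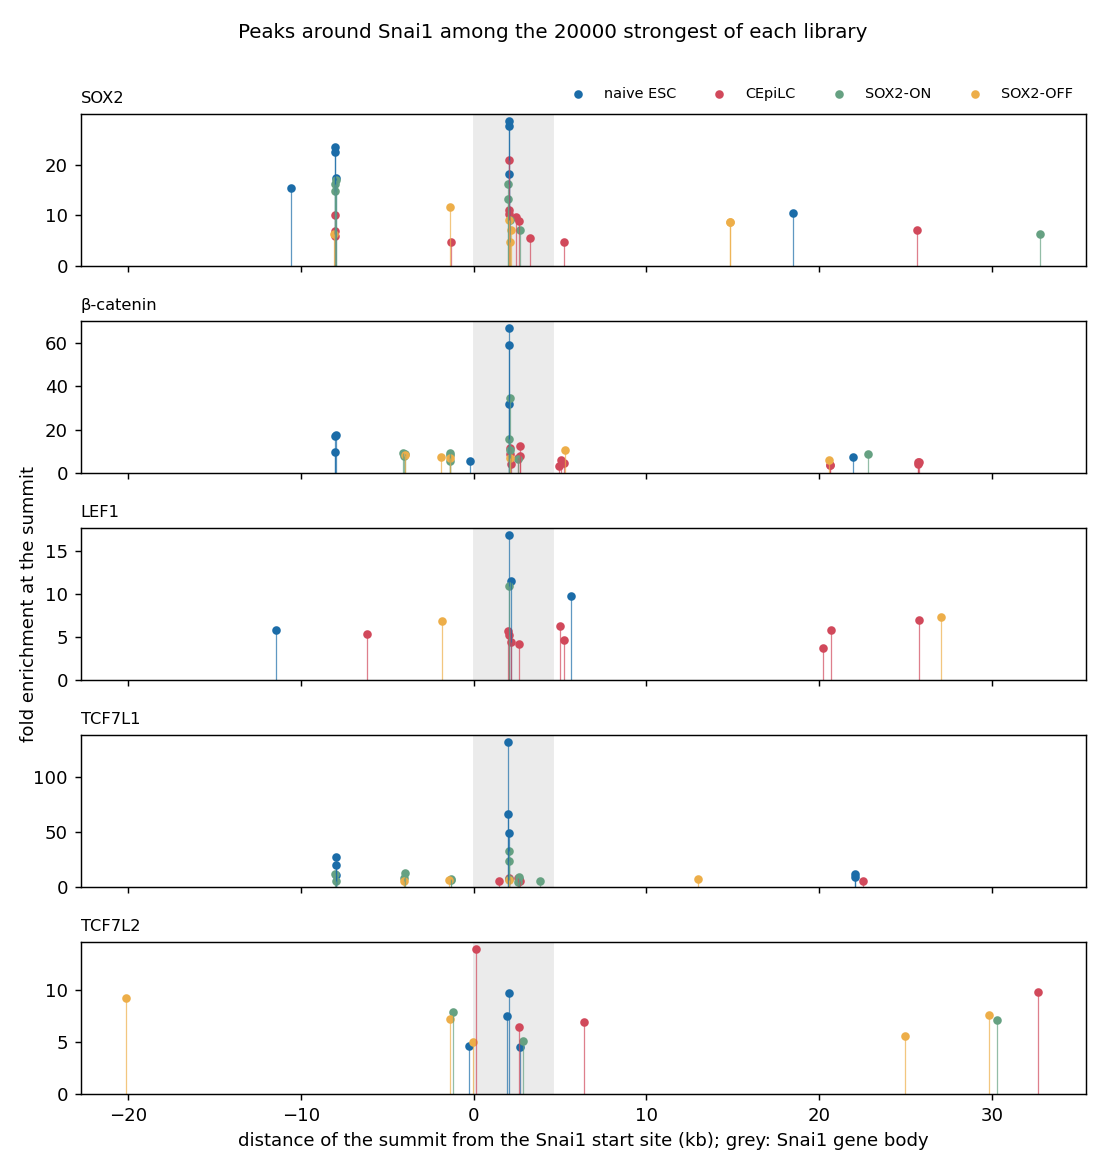
Every peak in the Snai1 window among the 20000 strongest of its library is drawn as a stem at the distance of its summit from the start in kb, with the deposited fold as its height and the condition as its colour, on a separate fold axis for each protein. The tallest stems are those of naive ESC at the intron site, up to 132 for TCF7L1 and 67.0 for β-catenin.

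At the Snai1 upstream site SOX2 was 22.4, 23.4 and 17.3 in naive ESC, 10.1, 6.90 and 6.02 in CEpiLC, 16.1, 14.8 and 17.0 in SOX2-ON and 6.25, 0 and 0 in SOX2-OFF (with weaker peaks of 5.59 and 6.21 in replicates 2 and 3). Here both high SOX2 conditions lay above both low SOX2 conditions without overlap. β-catenin was 17.1, 9.60 and 17.6 in naive ESC and was not among the strongest peaks of any other library. TCF7L1 was 20.3, 11.3 and 27.0 in naive ESC, 0, 5.83 and 11.9 in SOX2-ON, and 0 in all CEpiLC and SOX2-OFF libraries. No CEpiLC library had a β-catenin or TCF7L1 peak of any strength there. By contrast, 3 weaker β-catenin sites of the Snai1 window were among the strongest peaks of all CEpiLC and no naive ESC libraries. They lay 2616 bp downstream of the start in the intron (12.4, 8.08 and 6.95), 5122 bp downstream of the start, past the gene end (4.95, 3.54 and 5.93), and 25749 bp downstream of the start in an intron of Gm11476 (4.40, 5.20 and 5.34). The second of these had a weaker peak of 3.39 in naive ESC replicate 3, and the others had none.

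Fitted over the whole locus, Snai1 gave the only calls among the 7 genes. TCF7L1 was lower in CEpiLC than in naive ESC by a log2 difference of -4.27 (SE 1.13, limma adjusted p = 0.00324). The mean log2(fold + 1) was 6.26 in naive ESC, 1.99 in CEpiLC. The call was lost under quantile normalization of the libraries (-2.06, adjusted p = 0.0759), without replicate 2 (-5.18, adjusted p = 0.0725) and without replicate 3 (-4.25, adjusted p = 0.115), and it held when the lists under 5000 peaks were left out (-3.27, adjusted p = 0.0459). Without replicate 2 or replicate 3 no locus was called for TCF7L1 (0 of 17985 and 0 of 17966), so those losses are not particular to Snai1. With all replicates kept, 23.8% of all tested loci were called for TCF7L1 in this contrast, and 23.2% in the same direction. The median over all loci was -1.42, so a lower TCF7L1 value in CEpiLC was common. The β-catenin difference at Snai1 was -2.33 (SE 0.91) and did not pass (adjusted p = 0.116), although it did without the short lists (adjusted p = 0.0201).

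For high minus low SOX2, which averages naive ESC with SOX2-ON and CEpiLC with SOX2-OFF and so reuses the libraries of the other contrasts, Snai1 was called for TCF7L1 (2.79, SE 0.80, limma adjusted p = 0.0117) and for β-catenin (2.16, SE 0.64, adjusted p = 0.0434). Its SOX2-TetON part alone, SOX2-ON minus SOX2-OFF, was 1.315 for TCF7L1 (SE 1.13, limma adjusted p = 0.807) and 1.98 for β-catenin (SE 0.91, adjusted p = 0.315). Its wild-type part, CEpiLC minus naive ESC, was -4.27 and -2.33, and there cell state and medium differed too. Called for high minus low SOX2 in the same direction were 9.63% of all loci for TCF7L1 and 10.8% for β-catenin. Without replicate 3 neither passed (adjusted p = 0.314 and 0.264). The TCF7L1 call was also lost without replicate 2 (adjusted p = 0.179) and the β-catenin call without replicate 1 (adjusted p = 0.121), and neither passed by exact permutation of conditions within cell lines (adjusted p = 0.220 and 0.107). No locus of any protein passed by that permutation, and none passed for TCF7L1 without replicate 2 or without replicate 3. The losses by permutation and those of TCF7L1 are therefore not particular to Snai1. For β-catenin 2.87% of all loci were still called without replicate 1 and 2.36% without replicate 3, against 12.7% with all replicates. Without the lists under 5000 peaks both passed (2.29, adjusted p = 0.0464, and 1.59, adjusted p = 0.0313). SOX2 itself differed by 0.86 (SE 0.31, adjusted p = 0.114).

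Snai2 (chr16:14705852-14709385, plus strand), the other Snail gene, had few strong peaks, 25 in the 60 libraries. The sites shared most lay at the gene start, 1 of them 46 bp into the untranslated part of the first exon, in 10 libraries, and another 527 bp before the start. No protein had Snai2 in more than 6 of 12 libraries. TCF7L1 was 11.4, 0 and 17.1 in naive ESC, 0 in all CEpiLC libraries, 0, 0 and 8.11 in SOX2-ON and 7.10, 0 and 0 in SOX2-OFF. The fitted CEpiLC minus naive ESC difference was -2.61 (SE 1.13) and did not pass (limma, adjusted p = 0.0745). SOX2 was among the 20000 strongest peaks in 1 of 3 libraries of naive ESC (10.3), CEpiLC (6.26) and SOX2-ON (6.68) and in none of SOX2-OFF. With weaker peaks included, all libraries of naive ESC, SOX2-ON and SOX2-OFF had SOX2 at Snai2, the last with 4.86, 4.98 and 4.60.

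Zeb2 (chr2:44983632-45117395, minus strand) had the most widely shared site of all. The Zeb2 intron site was in 46 of 60 libraries and in 50 when weaker peaks were included. β-catenin there was 21.1, 9.54 and 11.1 in naive ESC, 33.8, 27.6 and 18.7 in CEpiLC, 18.5, 24.5 and 25.1 in SOX2-ON and 28.2, 7.64 and 37.8 in SOX2-OFF. TCF7L1 was 12.7, 9.61 and 17.7 in naive ESC, 9.25, 10.6 and 7.06 in CEpiLC, 5.26, 26.3 and 41.4 in SOX2-ON and 18.7, 18.7 and 23.8 in SOX2-OFF. Both proteins were thus present in all 12 of their libraries, with overlapping conditions.

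LEF1 and SOX2 at the same site separated the wild-type conditions. LEF1 was 0 in all naive ESC libraries and 16, 20.5 and 12.4 in CEpiLC, with a weaker peak of 5.79 in naive ESC replicate 3. SOX2 was 11.1, 0 and 0 in naive ESC and 22, 18.3 and 17.1 in CEpiLC. In SOX2-ON SOX2 was 11.2, 10.6 and 12.9, and in SOX2-OFF 13.5, 12 and 34.3, so that the cultures with and without doxycycline overlapped and the condition with low SOX2 held the highest value. TCF7L2 was among the strongest peaks of all CEpiLC libraries (6.00, 13.5 and 9.85), 1 naive ESC library and no other, with weaker peaks of 4.86 and 4.44 in replicate 3 of SOX2-ON and SOX2-OFF.

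The remaining Zeb2 sites divided by condition. In CEpiLC and no naive ESC library SOX2 lay 6199 bp from the start (9.82, 8.42 and 10.8), in a Zeb2 intron that overlaps exons of the antisense gene Zeb2os and of Gm27761, 1162 bp from the start (5.60, 7.95 and 7.63), and in an untranslated part of the first exon (10.9, 10.6 and 7.28). The last of these had weaker peaks of 7.19 and 4.95 in naive ESC, and the others had none. LEF1 shared the first position in CEpiLC (5.08, 5.61 and 6.21) and was also 78817 bp into the gene (4.89, 8.09 and 13.8), each with a weaker peak in naive ESC replicate 3 (4.43 and 4.11). Around this last position SOX2 was in all SOX2-OFF libraries (6.71, 7.91 and 10.6) and among the strongest peaks of no SOX2-ON library, where 2 weaker peaks of 5.20 and 5.74 were listed.

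With doxycycline, SOX2 appeared at other places in the gene. At the Zeb2 distal intron site SOX2 was 15.6, 18.1 and 16.1 in SOX2-ON, and no SOX2 library of any other condition had it among its strongest peaks. No SOX2-OFF library had a SOX2 peak of any strength there. TCF7L1 was at this site in 2 SOX2-ON libraries (7.77 and 9.73) and β-catenin in 1 (9.85). The same SOX2 distribution was found 99758 bp into the gene (7.57, 8.84 and 9.31 in SOX2-ON). TCF7L1 14041 bp from the start was 4.67, 10.1 and 15.4 in SOX2-ON and 0 in SOX2-OFF, with 1 weaker peak of 4.37.

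For the locus as a whole SOX2 was higher in CEpiLC than in naive ESC by 3.13 (SE 0.87), with no overlap between the libraries, and did not pass the threshold (limma, adjusted p = 0.0646). It did pass with all deposited peaks (1.34, adjusted p = 0.0461), with a pseudocount of 4 (1.89, adjusted p = 0.0329), under quantile normalization (3.38, adjusted p = 0.0289) and without replicate 1 (4.23, adjusted p = 0.00762). It missed the threshold with the replicate block (adjusted p = 0.0924) and when replicate 2 or replicate 3 was left out (adjusted p of 0.396 and 0.366). The difference was upward while the median over all loci was -0.18.

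Zeb1 (chr18:5591860-5775467, plus strand) stood at the other end. Its 25 strong peaks formed 25 separate sites, each in 1 library, so that no position recurred. SOX2 in naive ESC was 10.3, 6.49 and 6.45, the sole condition and protein with a strong peak in every replicate, against 4.81, 0 and 0 in CEpiLC, 0 in SOX2-ON and 5.24, 0 and 0 in SOX2-OFF. TCF7L1 had no strong peak at Zeb1 in any of 12 libraries and weaker ones, of at most 7.63, in 7, and it was therefore not tested. With all deposited peaks 44 libraries had a peak in the Zeb1 window.

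Twist1 (chr12:33957671-33959829, plus strand) held 34 strong peaks, in 21 libraries. Naive ESC had none for SOX2, β-catenin, TCF7L1 or TCF7L2 and 1 for LEF1 (9.60). The site shared most, at 17 bp before the start, was in 7 libraries. SOX2 over the locus was 4.81, 0 and 7.09 in CEpiLC, 6.34, 5.96 and 0 in SOX2-ON and 5.40, 0 and 6.69 in SOX2-OFF, and no pair at Twist1 was called. With weaker peaks included SOX2 was found there in all 12 libraries, up to a fold of 9.27.

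Across proteins, 34 of the 35 pairs of gene and protein could be tested. For CEpiLC minus naive ESC 1 pair was called, TCF7L1 at Snai1, and 5 had an unadjusted p below 0.05. Over all loci limma called 5.62% for SOX2, 11.6% for β-catenin and 23.8% for TCF7L1. It called 0 for LEF1 and TCF7L2, where 1867 of 18926 and 1129 of 18828 loci had an unadjusted p below 0.05. For SOX2-ON minus SOX2-OFF 0 pairs were called by limma, and 2 had an unadjusted p below 0.05, SOX2 at Cdh2 and β-catenin at Snai1 (1.98, SE 0.91, adjusted p = 0.315). The next pair was SOX2 at Snai1 (0.82, SE 0.45, adjusted p = 0.323). Over all loci 4.31% were called for SOX2, 2.62% for β-catenin, 0.00562% for TCF7L1, and 0 for LEF1 and TCF7L2, with 1122 and 866 loci at an unadjusted p below 0.05. For high minus low SOX2 2 pairs were called, both at Snai1, against 9.38% of loci for SOX2, 10.2% for TCF7L1, 12.7% for β-catenin, 0.117% for TCF7L2 and 0.143% for LEF1.

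The direction of these calls over all loci moved with the scaling of the libraries. Under quantile normalization the share of higher loci among the calls went from 2.43% to 68.4% for TCF7L1 and from 21.2% to 45.4% for β-catenin in CEpiLC minus naive ESC, from 91.3% to 31.8% for β-catenin in SOX2-ON minus SOX2-OFF, and from 94.1% to 38.1% for TCF7L1 and 84.7% to 45.3% for β-catenin in high minus low SOX2. The named differences of Snai1, Snai2, Zeb2 and Cdh2 kept their sign under it. Whether the difference between conditions itself differed between wild-type and SOX2-TetON cells was tested as an interaction. It was taken as naive ESC minus CEpiLC, less SOX2-ON minus SOX2-OFF. The interaction passed in 0 of 34 pairs (limma), with 3 at an unadjusted p below 0.05, all for SOX2. These were Zeb1 (3.14, SE 1.19), Cdh2 (-3.71, SE 1.47) and Zeb2 (-3.09, SE 1.23). The smallest adjusted p was that of TCF7L1 at Snai1 (2.95, SE 1.60, adjusted p = 0.256), whose unadjusted p was 0.0657.

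**Figure D4:**
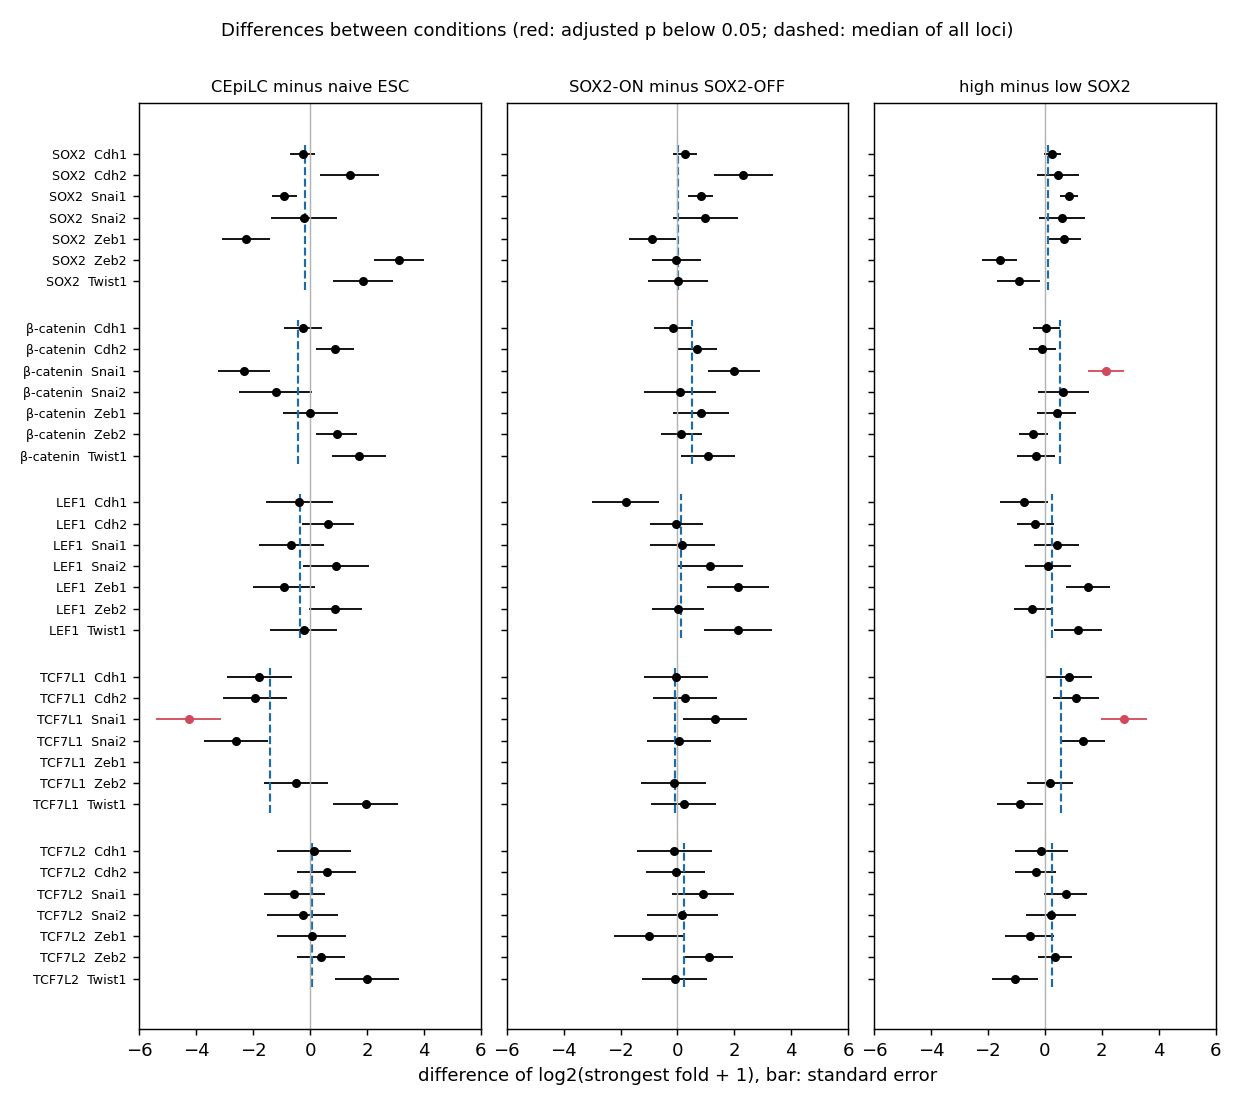
Fitted log2 differences on the log2(fold + 1) scale, with bars for standard errors and dashed lines at the median of all loci, for the 34 tested pairs of gene and protein in the 3 contrasts. TCF7L1 at Snai1 in CEpiLC minus naive ESC (-4.27) and TCF7L1 and β-catenin at Snai1 in high minus low SOX2 (2.79 and 2.16) are the pairs past the threshold.

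Counted by site among the 20000 strongest peaks, 14 combinations of site and protein were in all 3 CEpiLC and no naive ESC library, 9 in all naive ESC and no CEpiLC library, 9 in all SOX2-ON and no SOX2-OFF library, and 1 in all SOX2-OFF and no SOX2-ON library. These counts carry no test and were read against the same count over all sites of the genome. For SOX2, 3 of 64 sites at the 7 genes were in CEpiLC alone of the wild-type conditions (3.32% of all sites) and 0 of 64 in naive ESC alone (3.17%), while 5 of 67 were in SOX2-ON alone of the SOX2-TetON conditions (4.81%) and 1 of 67 in SOX2-OFF alone (0.741%). The 5 SOX2 sites with doxycycline were the upstream site of Cdh1 and pairs of intronic sites in Cdh2 and Zeb2.

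For β-catenin 6 of 57 sites were in CEpiLC alone (4.52% of all sites), 2 of 57 in naive ESC alone (6.37%), 2 of 67 in SOX2-ON alone (1.98%) and 0 of 67 in SOX2-OFF alone (0.264%). The CEpiLC sites were spread over Snai1, Cdh2 and the Cdh1 window, and both SOX2-ON sites were the Cdh2 introns that SOX2 occupied. For TCF7L1 0 of 46 were in CEpiLC alone (0.143%) and 7 of 46 in naive ESC alone (12.3%), at Cdh1, Cdh2 and Snai1, with 1 of 50 in SOX2-ON alone (0.478%) and 0 of 50 in SOX2-OFF alone (0.228%).

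For LEF1 4 of 65 sites were in CEpiLC alone (2.07% of all sites), 3 at Zeb2 and 1 at Cdh2, and 0 of 65 in naive ESC alone (0.0164%). In the SOX2-TetON line 1 of 50 LEF1 sites was in SOX2-ON alone (0.482%) and 0 of 50 in SOX2-OFF alone (0.151%). For TCF7L2 1 of 47 was in CEpiLC alone (0.615%), at the Cdh2 untranslated exon, 0 of 47 in naive ESC alone (0.31%), and 0 of 42 in SOX2-ON alone (0.162%) or SOX2-OFF alone (0.141%). Each share rests on at most 7 sites. When absence was also required among the weaker peaks, 7 of the 14 CEpiLC, 7 of the 9 naive ESC, 4 of the 9 SOX2-ON and 0 of the 1 SOX2-OFF combinations were counted.

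Other genes of epithelial and mesenchymal cells were summarised from lists named for this purpose. Of 26 epithelial adhesion and regulator genes, all tested, 8 were lower for TCF7L1 in CEpiLC than in naive ESC and 0 higher, with a median of -2.12 beside -1.42 over all loci, of which 23.2% were called lower. Of 22 mesenchymal genes 7 were lower and 0 higher, with a median of -1.81, so both lists and Snai1 lay on the same side of 0 as the median locus. For β-catenin, with 11.6% of all loci called, the epithelial list had 2 lower, Epcam (-3.95, adjusted p = 0.0323), an epithelial adhesion molecule, and Ovol2 (-2.86, adjusted p = 0.0282), a repressor of mesenchymal genes, and 1 higher, the splicing factor gene Esrp2 (2.62, adjusted p = 0.0142). The mesenchymal list had 0 of 21 for β-catenin and 1 of 21 for SOX2, Prrx1 (2.96, adjusted p = 0.00166), where 5.62% of all loci were called. In SOX2-ON minus SOX2-OFF 0 genes of either list were called for any protein. In high minus low SOX2, where 10.8% of all loci were called higher for β-catenin, 9.63% higher for TCF7L1 and 9.38% in either direction for SOX2, β-catenin was higher at Ovol2, Pkp2 and Epcam (2.90, 2.63 and 2.59) and TCF7L1 at Pkp2, Fn1 and Mmp14 (2.52, 2.34 and 2.93), while SOX2 was lower at Prrx1 (-1.43). These genes are named because they passed the test, after their values were seen.

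The loci whose fold varied most like a member over the 60 libraries, after the mean of each protein had been taken off, were found by Pearson's r. This is a description, since libraries of 1 protein share an antibody and their list lengths. Snai1 was most like Btbd11 (0.83), Erc2 (0.83) and Supt5 (0.82), and Zeb2 most like Nkd1 (0.81), Hoxb1 (0.76) and Hoxb2 (0.76). Cdh1 was most like Igfbpl1 (0.76), Dync1i2 (0.72) and Wasf2 (0.71), and Cdh2 most like Epha3 (0.74), Adamts6 (0.69) and Ank2 (0.67). For the sparsely bound genes the highest values were lower, 0.56 for Snai2 (Htr3a), 0.55 for Zeb1 (Nps) and 0.55 for Twist1 (Bnc1).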

How the data were processed

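Per the labels, chromatin was fixed with a protein cross-linker and formaldehyde, and each library came from an independent biological replicate. According to the study's methods the reads were processed with nf-core/ChIP-seq, aligned with BWA to mm10, and narrow peaks were called with MACS at default settings for each library, without pooling. The submitters' processing notes name MACS2 and mm10, with no versions used here. The deposited value used for strength is the fold, a ratio of summit signal to local background computed by the peak caller for the authors. As an alternative ranking the deposited −log10 p-value was used, and as a filter the deposited −log10 q-value. Which of the 4 inputs went with which library is not given in the sources used here, and inputs were not analysed. The authors tested read counts with DESeq2, and such counts were not used here. The depth of a library is unknown, because a list gives no reads, and counting error has no interval. List length, from 1628 to 991719 peaks, took its place.

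Because of these lengths, the 20000 strongest peaks by fold of each library were kept. The strongest fold in each protein-coding locus, from the gene body and 30 kb either side, was set to 0 where no peak was kept and tested as log2(fold + 1), a scale that understates changes of weak peaks and on which a difference from 0 is no bound. Loci with a peak in at least 3 of the 12 libraries of a protein entered 1 limma fit per protein over the 4 conditions, with Benjamini-Hochberg adjustment over all loci and a threshold of 0.05 (R 4.3.3, limma 3.58.1). The spread fitted for TCF7L1 was the same for every locus. The p-values set a difference against the spread of replicates within conditions. That spread was pooled over the 12 libraries of a protein and drawn towards a value common to all loci. For TCF7L1 it was the common value alone, so its p-values do not use the spread of the locus itself. Sites were summits joined within 200 bp, and weaker peaks were sought within the same distance. The steps ran in Python 3.11.15 with numpy 2.4.6 and pandas 2.3.3 and were tested on simulated data. Of the peaks, 63 lay off the main chromosomes and were left out.

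The 7 genes and the gene lists were chosen with earlier results of these data known. Of the list genes that passed the test, not every one is reported here by name. Differences were named for pairs past the threshold and otherwise for the 3 pairs of smallest adjusted p in each contrast. Sites were named where all 3 libraries of one condition and none of the other had them, and otherwise the site in the most libraries at each gene, and other sites given were chosen after their values were seen. Genes of like pattern were the 3 loci of highest r, and all 3 are given where the text lists them. Alternatives were all peaks, equal-length lists, another ranking, pseudocount, filter, scaling, window, joining distance and q-value, a replicate block, an exact permutation test, each replicate left out, and lists under 5000 peaks left out. Sequences are from GRCm38, and no protein sequences were used.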

Additional observations from a re-analysis of the deposited data

How the results depend on the processing

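The count of called pairs of gene and protein depended on list length more than on most other choices. For CEpiLC minus naive ESC the 1 called pair became 4 with all deposited peaks, 5 with equal-length lists, 3 with a pseudocount of 4, 4 under quantile normalization and 2 when the lists under 5000 peaks were left out, an alternative chosen after seeing the data. The share of all loci called moved as well. For β-catenin it was 11.6% as fitted here, 22% with all deposited peaks, 50.6% with equal-length lists, 18.6% with pseudocount 4 and 19% under quantile normalization. For TCF7L1 these shares were 23.8%, 8.77%, 50.4%, 34.2% and 1.49%. LEF1 went from 0 to 41.3% with all deposited peaks. With equal-length lists 22 pairs were tested. Leaving out each replicate in turn gave 0 to 3. For SOX2-ON minus SOX2-OFF 0 became 1 with all deposited peaks, where 2.27% of all loci were called for SOX2. Leaving out any 1 replicate gave 0 pairs. For high minus low SOX2 the 2 called pairs became 5 with all deposited peaks, 5 with equal-length lists, 1 at a −log10 q-value of at least 5 (where TCF7L1 at Snai1 had an adjusted p of 0.0533) and 0 by exact permutation within cell lines, where 3 pairs had an unadjusted p below 0.05, and 0 to 3 without 1 replicate. Of all loci, 12.7% were called there for β-catenin as fitted here, 29.8% with all deposited peaks and 56% with equal-length lists. For TCF7L1 these shares were 10.2%, 0.759% and 49.3%, and it was 2.53% with the q-value filter. With the replicate block the counts were 1, 0 and 2, unchanged. Libraries with the same replicate number were little alike: 2 of 90 such pairs, both of TCF7L1, had deviations that correlated above 0.1. This check cannot show whether libraries with the same number came from 1 experiment. Over the named differences and their alternatives, 103 kept direction and side of the threshold, 10 no longer passed, 6 newly passed and 0 changed sign. Sites in all CEpiLC and no naive ESC libraries, 14 here, were 8 with all deposited peaks, 7 when absence was required among all peaks, and 23 to 26 when 1 replicate was left out, where 2 of 2 libraries against 0 of 2 sufficed. Sites of naive ESC, 9 here, were 1 with equal-length lists, 19 with all peaks, 7 with absence in all peaks and 11 to 18 without 1 replicate. Sites of SOX2-ON, 9 here, were 15 with all peaks, 4 with absence in all peaks and 11 to 19 without 1 replicate. The 1 site of SOX2-OFF became 2 with equal-length lists, 2 with all peaks, 0 with absence in all peaks, 3 when ranked by −log10 p-value, 6 without the short lists and 2 to 8 without 1 replicate. The causes were not tested. The unknown read depth and the lists under 20000 peaks limit what an absent peak means.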
